A study of Ovis aries with 8 samples.

Results

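The genes described here are the translation factors and aminoacyl-tRNA synthetases of the lamb liver, 98 of the 27729 genes in the deposited table. They were chosen by name and not by level: 57 carry symbols that start with EIF or EEF, the eIF2 kinases left out, and 41 others have tRNA synthetase in their description. No pseudogene was taken in. They comprised 44 genes of initiation, 13 of elongation, 21 cytosolic and 17 mitochondrial synthetases, the scaffold proteins AIMP1 and AIMP2 of the synthetase complex, and LOC101122262, described as a prolyl-tRNA synthetase associated domain-containing protein.

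Poly(A)-selected RNA was sequenced from the livers of 4 lambs labelled RES and 4 lambs labelled ADL. The series title is about feed restriction while lambs suckled, followed by fattening, and the labels do not spell out either group name. Every lamb was labelled with a slaughter weight of 27 kg, and age, sex and breed are not given in the labels used here. Each library came from 1 numbered lamb, so the spread given below is the spread between animals.

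Initiation factors bring the ribosomal subunits, the initiator tRNA and the capped messenger RNA together at a start codon. Elongation factors then deliver each aminoacyl-tRNA and move the ribosome along the message, and synthetases load each tRNA with its amino acid. Synthetases for the cytosol and for mitochondria are mostly encoded by separate nuclear genes. The liver makes most plasma proteins, and the eIF2 and eIF4 steps of initiation are where nutrients and stress are best known to act on translation.

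Levels are in TPM, a share of transcripts corrected for gene length that sums to 1000000 in each library, so levels of different genes can be compared. Between 14514084 and 16182407 reads per lamb lay behind them. Albumin, the main protein hepatocytes secrete, took 9.43 to 13.4% of TPM in RES livers and 13.2 to 14.8% in ADL livers. The median of all 13437 genes tested was 0.09 higher in RES on the log2(TPM + 1) scale. Dividing TPM by size factors, which align the typical gene between libraries, moved that median to 0.01. Values after this scaling are therefore given beside many of those below, and a difference given without one is on TPM only. Of the marker lists, 1 of 7 tested hepatocyte genes was higher in RES, and their summed level was 144600 to 189900 TPM in RES and 189700 to 206100 TPM in ADL. All 4 tested macrophage markers were lower in RES (summed 201.5 to 471.7 TPM in RES, 280.4 to 380.6 TPM in ADL) and all 4 bile duct markers higher (11.5 to 17.2 TPM in RES, 9.13 to 15.5 TPM in ADL). Lymphocyte, stellate and endothelial markers were higher in RES for 3 of 5, 3 of 6 and 4 of 6. Their summed levels were 17.1 to 25.7, 152.8 to 198 and 135.9 to 151.3 TPM in RES and 16.4 to 26.9, 177.2 to 250.8 and 120.4 to 145.5 TPM in ADL. Of all genes tested, 71% were higher in RES. At unadjusted p under 0.05 (limma), 1 hepatocyte marker was lower and 1 lymphocyte marker was higher (1.5% and 10.4% of all genes). The authors' deposited DESeq2 test had 3 hepatocyte and 1 stellate marker lower and 1 lymphocyte marker higher at unadjusted p under 0.05 (3.85% and 3.73% of genes tested). A hepatocyte marker had an adjusted p of 0.0123 in that test, where 0.231% of the genes with such a value were under 0.05. APOA1, CD163 and KRT19, of the hepatocyte, macrophage and bile duct lists, had no entry under those symbols. No other marker in these lists was at 0 in every lamb. What part these levels have in the values below was not tested; in bulk tissue, fewer cells of a type and less RNA per cell cannot be told apart.

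Of the 98 genes, 95 averaged 1 TPM or more across the 8 lambs and entered the test. The other 3 were TARSL2, which encodes a threonyl-tRNA synthetase-like protein and reached 0.15 TPM, the muscle and nerve form of elongation factor 1A (EEF1A2), which reached 0.07 TPM, and the oocyte cap-binding protein gene EIF4E1B, listed at 0 in every lamb.

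Elongation factors were the most abundant. EEF1A1, which delivers aminoacyl-tRNA to the ribosome, averaged 510 ± 28.5 TPM in RES and 497 ± 42.9 TPM in ADL (SD, n = 4 each, here and for all means). Next came EEF1B2, a nucleotide exchange factor for it, and EEF2, which moves the ribosome along the message. Among initiation factors EIF4G2, EIF1 and EIF5 led, and the median over the 43 tested was 37.6 TPM, against 24.8 TPM for 20 cytosolic and 6.16 TPM for 17 mitochondrial synthetases. The rarest tested genes were EEF2KMT, a methyltransferase that acts on eEF2, and EIF5A2, and the median over 12 tested genes of elongation was 61.6 TPM.

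**Figure D1:**
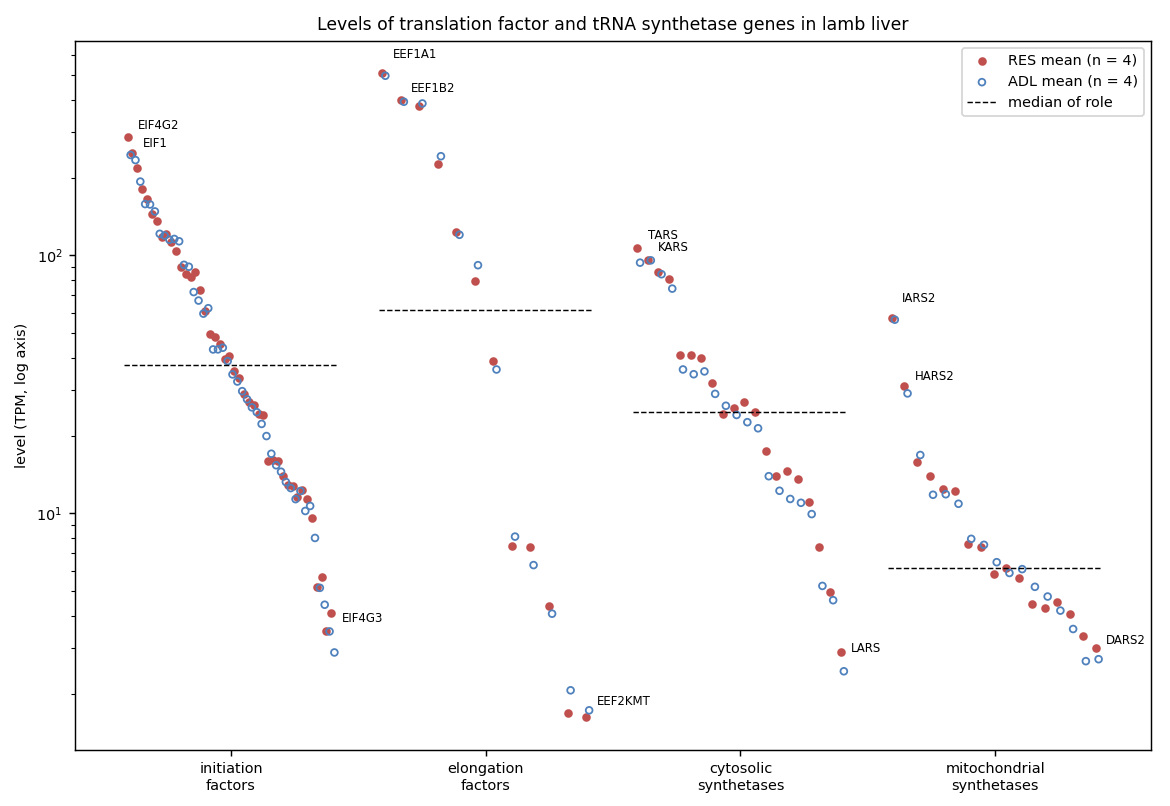
Mean level of each tested gene (TPM, log axis), genes in order of level within each role, with RES means as filled and ADL means as open points (n = 4 each) and the median of each role as a dashed line. Levels run from under 2 to about 500 TPM, and the points of RES and ADL lie close together for most genes.

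Comparing RES with ADL asks whether the groups differed in the liver's translation genes at the same slaughter weight. None of the 95 tested genes passed an adjusted p of 0.05 (limma on log2(TPM + 1), Benjamini-Hochberg over all 13437 genes, of which 0% passed), and the smallest adjusted p among them was 0.395. At an unadjusted p under 0.05, 10 of the 95 were higher in RES (10.5%, against 10.4% of all genes tested) and 0 were lower (1.5% of all genes). After size-factor scaling, 4 were higher (4.21%, against 3.4% of all genes) and 4 were lower (4.21%, against 4.25%). The smallest scaled adjusted p was 0.635. Differences above 0 were found for 72.6% of these genes and 71% of all genes, or for 49.5% and 51.6% after scaling. The shares of translation genes were thus close to those of all genes. The 95% limma intervals of the 95 differences reached from -0.56 to 0.81. Without ADL lamb 2 the count higher on TPM was 16, and without ADL lamb 3 it was 5.

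In the authors' deposited table, 4 of these genes had an unadjusted p under 0.05 and were higher in RES (3.73% of genes tested) and 4 were lower (3.85%). The higher were EIF3J, EIF4G1, EIF4G2 and EIF4G3, and the lower were EEF1D, EEF1G, EIF3G and RARS2, in the authors' deposited table. No translation gene had an adjusted p under 0.05 in the authors' deposited table, where 0.231% of the genes with such a value did. The smallest adjusted p of a translation gene in the authors' deposited table was 0.291, shared by EIF4G3 and EEF1D.

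The roles differed in where their medians lay. The median difference, RES minus ADL in log2(TPM + 1), was 0.09 for initiation factors and -0.0047 for elongation genes. It was 0.18 for cytosolic synthetases and 0.05 for mitochondrial synthetases. After scaling these medians were -0.01, -0.09, 0.09 and -0.04 in the same order. On TPM, 32 of 43 initiation, 6 of 12 elongation, 19 of 20 cytosolic and 10 of 17 mitochondrial genes were above 0. After scaling the counts were 21, 2, 16 and 6. Of all genes tested, 71% were above 0 on TPM and 51.6% after scaling. No test of a difference between roles was made.

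**Figure D2:**
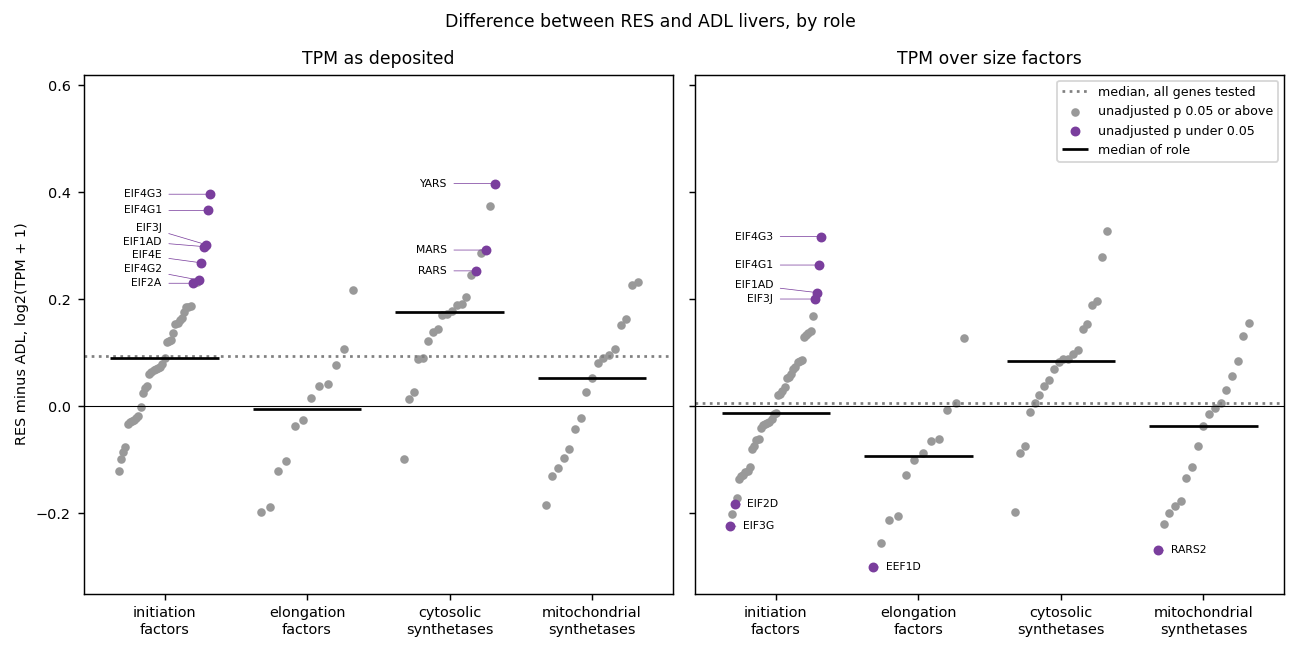
Difference between RES and ADL livers (RES minus ADL, log2(TPM + 1)) for each tested gene by role, on deposited TPM (left) and on TPM over size factors (right), with the median of each role (bar) and of all genes tested (dotted line). Purple points have an unadjusted limma p under 0.05. The all-gene median moves from 0.09 to 0.01, and the elongation median lies below it and the cytosolic synthetase median above it in both panels.

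EIF4G3 and EIF4G1 had the largest differences among the initiation factors tested, and EIF4G2 belongs to the same scaffold family. eIF4G1 and eIF4G3 bind the cap-binding protein eIF4E, the helicase eIF4A and eIF3 and so bridge message and ribosome. eIF4G2 lacks the eIF4E site and works in initiation that does not go through eIF4E. The table places EIF4G1 on chromosome 1 (200908343 to 200926902), EIF4G2 on chromosome 15 (41337451 to 41358467) and EIF4G3 on chromosome 2 (244453329 to 244724597); the genome build and the counting base are not stated in it.

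EIF4G1 stood at 80.6, 83.1, 81.1 and 99.9 TPM in RES lambs 1 to 4, and at 55.7, 77.8, 63.8 and 70.2 TPM in ADL lambs 1 to 4. Every RES lamb lay above every ADL lamb, with RES lamb 4 apart at the top. The difference was 0.37 ± 0.12 (SE; limma unadjusted p = 0.0132, adjusted p = 0.395), and 0.26 after scaling (unadjusted p = 0.0384), where the groups overlapped.

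EIF4G2 stood at 290.9, 283.9, 286.9 and 293.7 TPM in RES lambs, and at 240.1, 236.5, 247.7 and 256.8 TPM in ADL lambs. The groups did not overlap, and the spread within each was among the narrowest of all members. The difference was 0.24 ± 0.07 (SE; limma unadjusted p = 0.0081, adjusted p = 0.395), and 0.13 after scaling (unadjusted p = 0.0984), where the groups still did not overlap.

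EIF4G3 was much rarer, at 3.96, 4.38, 3.59 and 4.44 TPM in RES lambs and 2.25, 3.37, 2.62 and 3.32 TPM in ADL lambs. Here too all RES lambs lay above all ADL lambs. The difference was 0.40 ± 0.12 (SE; limma unadjusted p = 0.0104, adjusted p = 0.395), and 0.32 after scaling (unadjusted p = 0.0231). The fold changes on the log2 scale in the authors' deposited table, shrunken towards 0, are 0.23 for EIF4G1, 0.13 for EIF4G2 and 0.34 for EIF4G3, with adjusted p-values of 0.455, 0.477 and 0.291.

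The cap-binding protein gene EIF4E stood at 25.7, 22.7, 23.2 and 25.1 TPM in RES lambs and 18.6, 23.0, 18.4 and 19.8 TPM in ADL lambs. ADL lamb 2 lay within the RES range, and the other ADL lambs lay below it. The difference was 0.27 ± 0.09 (SE; limma unadjusted p = 0.0183, adjusted p = 0.395) and 0.17 after scaling (unadjusted p = 0.0732). With 2 entries described as copies of EIF4E (below) added, 1 of them of widely varying level, the difference was 0.45 ± 0.49 (SE; limma unadjusted p = 0.387). The helicase genes EIF4A1 and EIF4A2 and their partners EIF4B and EIF4H showed differences of 0.16, -0.03, -0.02 and 0.07, with overlapping groups. Summed over the 10 tested eIF4 genes, the level was 858 to 905 TPM in RES and 761 to 827 TPM in ADL, so the summed ranges did not meet on this scale. After scaling, each eIF4 gene was set against its own mean over the lambs (log2). The median of these deviations ran from -0.0063 to 0.0747 in RES lambs and -0.114 to -0.00088 in ADL lambs, so the groups overlapped.

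The proteins that hold eIF4E back varied more between lambs. EIF4EBP1, a repressor that mTOR inactivates by phosphorylation, stood at 23.5, 28.0, 30.4 and 23.0 TPM in RES lambs and 23.0, 23.4, 17.0 and 35.3 TPM in ADL lambs. ADL lamb 3 was the lowest and ADL lamb 4 the highest of all 8, so the ADL range enclosed RES (difference 0.12 ± 0.20, SE). EIF4EBP2, its relative, stood at 85.6, 86.0, 59.6 and 99.6 TPM in RES and 64.3, 68.0, 75.6 and 80.7 TPM in ADL, and RES lamb 3 was the lowest of all 8 (difference 0.18 ± 0.15, SE).

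**Figure D3:**
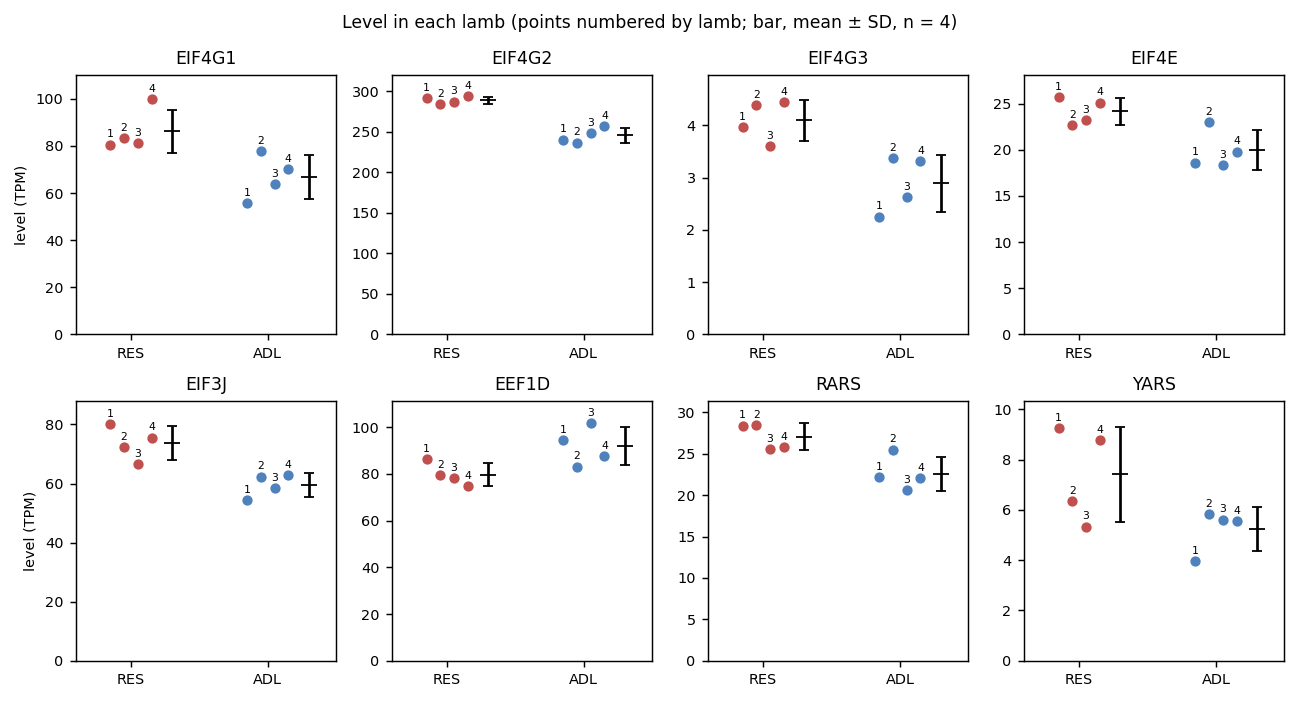
Level of 8 genes in each lamb (TPM, axes from 0), with RES to the left of ADL, points numbered by lamb, and the mean ± SD (n = 4) beside each group. EIF4G1, EIF4G2, EIF4G3, EIF3J and RARS show no overlap of the groups, and EIF4E, EEF1D and YARS overlap.

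Of the 12 tested subunits of eIF3, the large complex that holds the small ribosomal subunit, 8 were above 0 on TPM (66.7%, against 71% of all genes tested). After scaling 4 were above 0 (33.3%, against 51.6% of all genes), so the subunits did not share a direction on either scale. EIF3J, a loosely bound subunit on chromosome 7 (99718959 to 99727755), had the smallest p of all members. It stood at 80.2, 72.3, 66.6 and 75.5 TPM in RES lambs and 54.3, 62.3, 58.5 and 62.9 TPM in ADL lambs. The groups did not overlap on either scale, and the difference was 0.30 ± 0.09 (SE; limma unadjusted p = 0.0069, adjusted p = 0.395) and 0.20 after scaling (unadjusted p = 0.0353). EIF3G, a subunit of the same complex named here after its values were seen, stood at 115.6, 103.8, 96.8 and 101.4 TPM in RES lambs and 112.0, 108.8, 118.7 and 114.6 TPM in ADL lambs. RES lamb 1 lay within the ADL range and the other RES lambs below it, with a difference of -0.12 ± 0.08 (SE) on TPM and -0.22 after scaling (limma unadjusted p = 0.0262). EIF3D had the least spread within groups of all members.

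eIF2 carries the initiator tRNA, and eIF2B recharges eIF2 with GTP. The differences of the 3 eIF2 genes were 0.08 for EIF2S1, 0.23 for EIF2S2 and 0.14 for EIF2S3, and after scaling -0.01, 0.14 and 0.04. EIF2S1, the alpha subunit whose phosphorylation slows initiation, stood at 10.5, 10.3, 11.2 and 13.7 TPM in RES lambs and 11.03, 11.2, 9.91 and 10.6 TPM in ADL lambs. The groups overlapped, with RES lamb 4 highest (difference 0.08 ± 0.10, SE, and -0.01 after scaling). EIF2B5, the catalytic subunit of eIF2B, stood at 29.0, 26.3, 25.8 and 27.2 TPM in RES and 27.5, 25.7, 26.6 and 23.2 TPM in ADL, again overlapping (difference 0.07 ± 0.08, SE, and -0.03 after scaling). The other eIF2B subunits lay between -0.08 and 0.17.

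Groups that did not overlap with RES higher were found for 9 of the 95 genes (9.47%, against 6.61% of all genes tested), and for 0 with RES lower (0.781% of all genes). After scaling there were 4 higher (2.22% of all genes) and 3 lower (2.41%). On TPM they were EIF3J, the 3 eIF4G genes, RARS, and 4 named here after their values were seen: EIF1AD, EIF2A, which encodes an alternative carrier of initiator tRNA, EIF3E and EIF2S3. For EIF2S3 this holds on its own entry only, and with its copies (below) the groups overlapped. For each of these 9 genes the exact two-sided permutation p over 70 assignments was 0.0286, the smallest that 4 against 4 lambs can give. Groups that do not overlap always give this value, so it adds nothing to the lack of overlap. After scaling the 4 higher were EIF3J, EIF4G2, EIF4G3 and EIF1AD, and the 3 lower were EEF1D, EIF2D and TARS2.

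Among elongation genes, EEF1D had the smallest p. It encodes the delta subunit of the complex that recharges eEF1A with GTP. It stood at 86.4, 79.5, 78.3 and 74.7 TPM in RES lambs and 94.5, 83.1, 101.6 and 87.7 TPM in ADL lambs. RES lamb 1 lay above ADL lamb 2, and the other RES lambs lay below every ADL lamb. The difference was -0.20 ± 0.09 (SE; limma unadjusted p = 0.0523, adjusted p = 0.424) and -0.30 after scaling, where the groups did not overlap (unadjusted p = 0.0149). In the authors' deposited table EEF1D has a shrunken log2 fold change of -0.28 (adjusted p = 0.291). EEF1G, the gamma subunit of the same complex, has -0.19 in the authors' deposited table (adjusted p = 0.481).

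EEF1A1 stood at 552.7, 493.2, 495.6 and 498.8 TPM in RES lambs and 560.1, 490.6, 470.3 and 468.8 TPM in ADL lambs. Lamb 1 was the highest in each group, and the groups overlapped (difference 0.04 ± 0.09, SE, and -0.06 after scaling). EEF2 stood at 404.0, 402.7, 358.0 and 354.1 TPM in RES and 390.6, 319.6, 444.1 and 399.5 TPM in ADL, so the ADL range enclosed RES (difference -0.03 ± 0.11, SE). Its kinase EEF2K, which slows elongation by phosphorylating eEF2, stood at 42.4, 37.4, 40.8 and 35.4 TPM in RES lambs and 34.9, 41.0, 34.1 and 34.6 TPM in ADL lambs. ADL lamb 2 stood within the RES range and the other 3 ADL lambs below it (difference 0.11 ± 0.09, SE). After scaling the differences were -0.13 for EEF2 and 0.0072 for EEF2K.

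EEF1E1, which also sits in the synthetase complex, stood at 8.86, 7.23, 6.35 and 7.08 TPM in RES and 4.34, 7.16, 5.75 and 7.97 TPM in ADL. EIF5A2, the rarer form of the factor that frees ribosomes stalled on difficult sequences, stood at 1.89, 1.21, 2.10 and 1.51 TPM in RES and 2.07, 2.79, 1.86 and 1.54 TPM in ADL. Both overlapped between groups, with differences of 0.22 ± 0.17 and -0.19 ± 0.16 (SE). The common form, EIF5A, stood at 115 to 132 TPM in RES and 108 to 130 TPM in ADL.

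Scaling acts on all genes of a library alike, so a ratio of genes within a lamb does not change with it. The summed level of the elongation genes over that of the initiation genes was 0.633, 0.613, 0.593 and 0.620 in RES lambs and 0.707, 0.653, 0.679 and 0.625 in ADL lambs. It averaged 0.615 ± 0.017 in RES and 0.666 ± 0.035 in ADL, and RES lamb 1 and ADL lamb 4 overlapped. With the copies of these genes (below) added in, it averaged 1.97 ± 0.057 in RES and 2.08 ± 0.097 in ADL.

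All 12 free cytosolic synthetases tested were above 0 on TPM and 11 after scaling, as were 7 and 5 of the 8 that belong to the multi-synthetase complex. Of all genes tested, 71% were above 0 on TPM and 51.6% after scaling. At an unadjusted limma p under 0.05, 3 of 20 cytosolic synthetases were higher on TPM (10.4% of all genes), and 0 after scaling (3.4%). Groups that did not overlap with RES higher were found for 1 of the 20 on TPM (6.61% of all genes) and 0 after scaling (2.22%). RARS, the arginyl enzyme, stood at 28.4, 28.5, 25.6 and 25.8 TPM in RES lambs and 22.2, 25.5, 20.6 and 22.02 TPM in ADL lambs. The groups did not overlap, though ADL lamb 2 came within 0.1 TPM of RES lamb 3. The difference was 0.25 ± 0.09 (SE; limma unadjusted p = 0.0186, adjusted p = 0.395) and 0.15 after scaling (unadjusted p = 0.108).

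MARS, the methionyl enzyme, stood at 14.2, 13.5, 11.9 and 14.9 TPM in RES and 9.07, 11.8, 10.3 and 12.8 TPM in ADL (difference 0.29 ± 0.12, SE; limma unadjusted p = 0.0351, adjusted p = 0.411). ADL lamb 4 lay above RES lamb 3, so the groups overlapped. After scaling the MARS difference was 0.20 (limma unadjusted p = 0.1). YARS, the tyrosyl enzyme, stood at 9.24, 6.34, 5.33 and 8.76 TPM in RES and 3.95, 5.84, 5.61 and 5.54 TPM in ADL (difference 0.42 ± 0.18, SE; limma unadjusted p = 0.042, adjusted p = 0.414). RES lambs 1 and 4 were high, RES lamb 3 lay within the ADL range, and ADL lamb 1 was the lowest. After scaling the YARS difference was 0.33 (limma unadjusted p = 0.0815).

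EPRS, which joins the glutamyl and prolyl enzymes in 1 protein, stood at 40.4, 38.4, 38.7 and 47.0 TPM in RES and 30.7, 41.1, 32.4 and 34.3 TPM in ADL (difference 0.24 ± 0.11, SE; limma unadjusted p = 0.0537). TARS, the threonyl enzyme and the most abundant synthetase, stood at 124.4, 92.3, 97.6 and 115.2 TPM in RES and 89.4, 110.5, 83.0 and 92.4 TPM in ADL (difference 0.19 ± 0.12, SE). WARS, the tryptophanyl enzyme, which interferon induces, stood at 23.1, 15.3, 17.8 and 13.9 TPM in RES and 13.8, 14.5, 13.99 and 13.5 TPM in ADL (difference 0.29 ± 0.14, SE). For WARS the ADL lambs lay within about 1 TPM of one another while the RES lambs were spread, and for all 3 genes the groups overlapped. GARS and KARS, whose products serve both compartments in human, are counted as cytosolic here.

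AIMP1 and AIMP2 hold the multi-synthetase complex together. AIMP1 stood at 7.04, 6.66, 7.77 and 7.04 TPM in RES and 7.31, 5.88, 8.35 and 7.17 TPM in ADL, with a difference of -0.0021 ± 0.11 (SE). AIMP2 stood at 15.9, 16.8, 7.92 and 15.9 TPM in RES and 12.2, 13.5, 9.56 and 15.9 TPM in ADL (difference 0.10 ± 0.23, SE). AIMP2 had the widest spread of all members, and RES lamb 3 and ADL lamb 3 were the lowest of the 8.

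None of the 17 mitochondrial synthetases had an unadjusted limma p under 0.05 on TPM, where 10.4% of all genes were higher and 1.5% lower. After scaling 1 of the 17 was lower and 0 higher (4.25% and 3.4% of all genes). That gene was RARS2, the arginyl enzyme, at 4.24, 5.30, 4.17 and 4.07 TPM in RES lambs and 5.12, 6.05, 4.38 and 5.23 TPM in ADL lambs. RES lamb 2 lay within the ADL range and the other RES lambs below it. The difference was -0.18 ± 0.12 (SE; limma unadjusted p = 0.143) and -0.27 after scaling (unadjusted p = 0.0412, scaled adjusted p over all genes 0.640).

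LARS2, the leucyl enzyme, stood at 17.0, 13.8, 13.5 and 11.8 TPM in RES and 9.77, 12.4, 11.7 and 13.4 TPM in ADL (difference 0.23 ± 0.13, SE). PARS2, the prolyl enzyme, stood at 2.51, 3.67, 4.07 and 3.11 TPM in RES and 2.30, 3.16, 2.45 and 2.78 TPM in ADL (difference 0.23 ± 0.14, SE). YARS2, the tyrosyl enzyme, stood at 13.6, 12.9, 11.6 and 10.7 TPM in RES and 11.03, 11.6, 9.19 and 11.7 TPM in ADL (difference 0.15 ± 0.11, SE). The groups overlapped for each of them. IARS2, the isoleucyl enzyme and the most abundant of the mitochondrial set, stood at 55.9, 61.2, 59.2 and 53.3 TPM in RES and 56.5, 50.8, 61.3 and 56.9 TPM in ADL, with a difference of 0.03 ± 0.08 (SE).

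For 14 amino acids a cytosolic and a mitochondrial synthetase gene were paired, and their ratio within a lamb is free of the scaling. Glutamate and proline, which share EPRS, and phenylalanine, with the cytosolic genes FARSA and FARSB, were also measured in both compartments but were not paired. The cytosolic gene was the higher in every lamb for 9 of the 14, from methionine and valine at about 2 to 4 times the mitochondrial gene to aspartate at about 30 times. On the genes' own entries, the mitochondrial gene was the higher in every lamb for cysteine, isoleucine, leucine and tyrosine. For histidine the order differed between lambs. LARS and YARS, the cytosolic genes for leucine and tyrosine, are among those with much TPM on entries described as copies (below). With its copy LARS stood at 15.5 to 23.5 TPM, against 9.77 to 17.0 TPM for LARS2, and was the higher in every lamb. With its copy YARS stood at 8.76 to 19.9 TPM, against 9.19 to 13.6 TPM for YARS2, and was the higher in every lamb but ADL lamb 1. The order for leucine and tyrosine thus depends on how the copies are counted. The ratio was higher in RES for 10 of the 14, with a median difference of 0.19 on the log2 scale.

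Arginine and threonine were the pairs whose groups did not overlap. The RARS over RARS2 ratio was 6.70, 5.37, 6.13 and 6.33 in RES lambs and 4.33, 4.22, 4.71 and 4.21 in ADL lambs, a difference of 0.49 on the log2 scale. The TARS over TARS2 ratio was 7.43, 6.07, 6.61 and 6.95 in RES lambs and 5.65, 5.50, 5.34 and 5.81 in ADL lambs, a difference of 0.28. For both, all RES lambs lay above all ADL lambs, which fixes the exact two-sided permutation p at 0.0286. Adjusted over the 14 pairs by Benjamini-Hochberg this was 0.2, and with 4 lambs a group no single pair could have passed. These pairs were picked out after their values were seen.

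**Figure D4:**
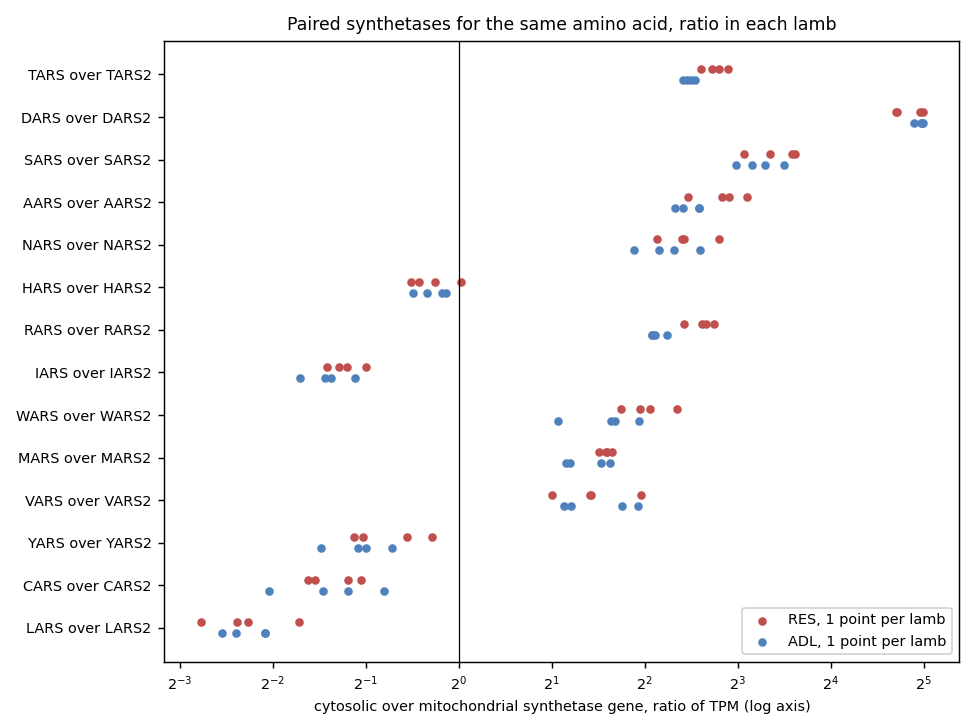
Ratio of the cytosolic to the mitochondrial synthetase gene for each of 14 amino acids (TPM over TPM, log axis), 1 point per lamb, RES above ADL in each line, ordered by the level of the cytosolic gene. The vertical line marks equal levels; for RARS over RARS2 and TARS over TARS2 all RES points lie to the right of the ADL points.

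For 21 of these genes the table also holds entries described as the same factor or as pseudogenes of it, 72 in all, and how reads shared between such copies were assigned is not stated. EEF1A1 has 33 of them, 24 described as pseudogenes, and its own entry held 10.2% of the summed TPM. The own entry also held the smaller part for EIF2S2 (11.8%), LARS (14.05%), EIF3F (20.03%), EIF2S1 (20.3%), EIF4E (33.8%), EIF2S3 (35.1%) and YARS (45.3%). The levels of these genes are therefore uncertain.

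EEF1A1 with its copies stood at 5559, 4735, 4990 and 4939 TPM in RES lambs and 5178, 4612, 4865 and 4683 TPM in ADL lambs, which overlapped (difference 0.06 ± 0.10, SE, and -0.04 after scaling). EIF2S2, the beta subunit of eIF2, had its clearest separation in this form. With its copies it stood at 113, 92.5, 99.5 and 113 TPM in RES lambs and 83.2, 86.6, 86.5 and 87.7 TPM in ADL lambs. All RES lambs lay above all ADL lambs (difference 0.27 ± 0.09, SE; limma unadjusted p = 0.0115, adjusted p = 0.395; after scaling 0.17, unadjusted p = 0.0593). On its own entry EIF2S2 overlapped between groups (difference 0.23 ± 0.15, SE). EIF2S3 went the other way, with no overlap on its own entry. With its copies EIF2S3 stood at 110, 96.5, 102 and 92.0 TPM in RES lambs and 97.7, 90.7, 95.1 and 93.4 TPM in ADL lambs. These groups overlapped (difference 0.09 ± 0.08, SE, and -0.02 after scaling). YARS with its copy had a difference of 0.46 ± 0.17 (SE; limma unadjusted p = 0.0268).

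**Figure D5:**
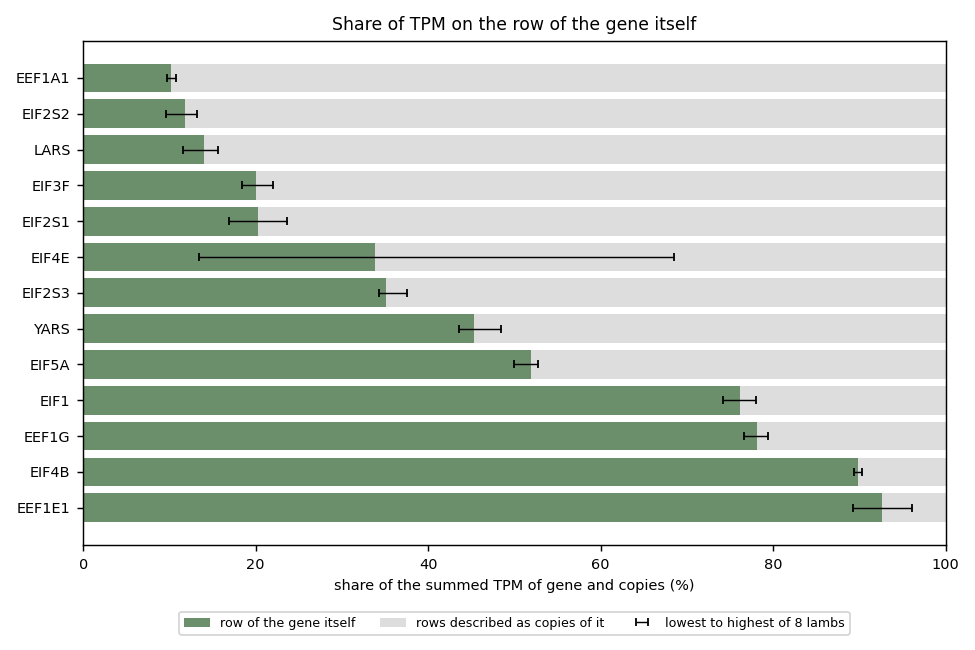
Share of the summed TPM of a gene and its described copies that lay on the gene's own entry (%), from mean TPM over the 8 lambs, for the genes with under 95% there; error bars run from the lowest to the highest lamb. EEF1A1 holds 10.2%, and EIF4E ranges from 13.5 to 68.5% between lambs.

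Also, 14 of the tested genes overlap another gene on the chromosome, mostly on the other strand, and whether counting used strand is not stated. MARS overlaps 63 bases of DDIT3, a stress-response transcription factor gene at a similar level, and SARS2 overlaps 2063 bases of MRPS12, a mitochondrial ribosomal protein gene at 46.4 TPM against 7.8 TPM for SARS2. EARS2 overlaps UBFD1 over 1410 bases. TARS2, a gene of the threonine pair above, overlaps 6611 bases of RPRD2 on the same strand (16.3 TPM against 4.74 TPM for RPRD2). RARS, of the arginine pair, overlaps LOC105606740 and LOC105606745 on the other strand, at 0.0869 and 0.0881 TPM. Reads from such stretches could fall to either gene.

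Genes around these factors were described from 5 lists that the name rule leaves out, 61 of whose 62 genes were tested. None passed an adjusted p of 0.05 (limma); 9 were higher and 1 lower at unadjusted p under 0.05 (10.4% and 1.5% of all genes tested), and 3 were higher and 2 lower after scaling (3.4% and 4.25% of all genes). Of all genes tested 71% were above 0 on TPM and 51.6% after scaling, and the lists below are to be read against these shares. Of 17 tested genes of the eIF2 kinases and the integrated stress response, the pathway that phosphorylates eIF2, 13 were above 0 on TPM and 8 after scaling. On both scales 3 were higher at unadjusted p under 0.05, and after scaling the groups overlapped for every gene of this list tested. PPP1R15B, which directs the phosphatase that removes that phosphate in unstressed cells, stood at 47.6, 43.5, 52.1 and 56.3 TPM in RES lambs and 36.2, 43.3, 33.5 and 40.7 TPM in ADL lambs. All RES lambs lay above all ADL lambs, RES lamb 2 by a narrow margin (difference 0.37 ± 0.11, SE; limma unadjusted p = 0.0092, adjusted p = 0.395; after scaling 0.27).

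PPP1R15A, its stress-induced counterpart, stood at 18.9, 12.3, 13.4 and 16.3 TPM in RES lambs and 9.30, 9.79, 11.9 and 11.98 TPM in ADL lambs. On TPM the groups again did not overlap (difference 0.46 ± 0.14, SE; limma unadjusted p = 0.011, adjusted p = 0.395; after scaling 0.36). The third was CEBPG, a partner of ATF4, with a difference of 0.39. ATF4, the transcription factor at the centre of this response, had a difference of 0.07. Over the list differences ran from -0.20 for PSAT1, a serine synthesis gene, to 0.46 for PPP1R15A. CEBPG, ATF4 and PSAT1 are named after their values were seen.

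All 8 genes of termination and ribosome recycling were above 0 on both scales, with a median of 0.22 on TPM and 0.12 after scaling, against 0.09 and 0.01 for all genes tested. At unadjusted p under 0.05 there were 3 on TPM (10.4% of all genes) and 0 after scaling (3.4%), and the groups overlapped for each of the 8 on both scales. HBS1L, which with pelota frees stalled ribosomes, stood at 5.61, 5.90, 4.56 and 7.25 TPM in RES and 4.70, 4.34, 3.76 and 4.85 TPM in ADL (difference 0.33 ± 0.13, SE; limma unadjusted p = 0.035, adjusted p = 0.411). DENR, which acts in recycling and reinitiation, stood at 14.8, 13.8, 13.1 and 13.8 TPM in RES and 9.30, 13.4, 8.93 and 12.5 TPM in ADL (difference 0.32 ± 0.13, SE; limma unadjusted p = 0.0365). In both, 1 RES lamb lay inside the ADL range.

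Of 18 genes that signal to eIF4 and eEF2, 15 were above 0 on TPM and 8 after scaling. RHEB, the GTPase that switches on mTOR complex 1, stood at 74.2 to 85.3 TPM in RES and 63.4 to 72.7 TPM in ADL (difference 0.23 ± 0.08, SE; limma unadjusted p = 0.0158, adjusted p = 0.395). LARP1, which binds messages of the translation machinery, stood at 29.2 to 33.2 TPM in RES and 24.8 to 28.6 TPM in ADL (difference 0.21 ± 0.08, SE; limma unadjusted p = 0.0263). Neither group pair overlapped, and after scaling neither had an unadjusted p under 0.05.

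Of 13 mitochondrial translation factors, 8 were above 0 on TPM and 3 after scaling. GATB, a subunit of the enzyme that makes glutaminyl-tRNA in mitochondria, stood at 6.58, 6.78, 5.68 and 5.68 TPM in RES lambs and 7.62, 8.58, 7.03 and 6.81 TPM in ADL lambs. All RES lambs lay below all ADL lambs (difference -0.24 ± 0.10, SE; limma unadjusted p = 0.0382, adjusted p = 0.411; after scaling -0.33, unadjusted p = 0.0091). MTRF1L, a mitochondrial release factor, had a difference of -0.13 on TPM and -0.23 after scaling (limma unadjusted p = 0.0374). Of 5 genes of selenocysteine insertion, 3 were above 0. SEPSECS, which completes selenocysteinyl-tRNA, stood at 63.2 to 70.9 TPM in RES and 48.0 to 61.0 TPM in ADL (difference 0.29 ± 0.09, SE; limma unadjusted p = 0.0097, adjusted p = 0.395; after scaling 0.19, unadjusted p = 0.0688). SEPHS1, a homologue of selenophosphate synthetase, had a difference of 0.17 ± 0.10 (SE) with overlapping groups.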

How the data were processed

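Liver RNA of 8 lambs was measured, 4 RES and 4 ADL, grouped by sample title. The authors deposited 1 table of TPM values, made with the gene length it lists, per the file headers. It also holds the authors' deposited DESeq2 result: a mean over lambs of size-factor normalized signal, log2 fold changes with standard errors, the Wald score and p-values. DESeq2 1.12.4 and, for base calls, bcl2fastq 1.8.4 are listed in the submitters' processing notes. The aligner, counter, strand setting and build were not given in the sources used here. TPM times length came out as whole reads for 100% of values (tolerance 1e-06), which gave the depth.

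Values were taken as log2(TPM + 1), which understates changes of low genes. Genes averaging 1 TPM or more were compared by limma 3.58.1 (eBayes with trend, R 4.3.3), RES minus ADL, two-sided, Benjamini-Hochberg over 13437 genes, threshold 0.05. The fit was tested on simulated data. Scaling divided TPM by median-of-ratios size factors.

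Genes given for every lamb are, per role, the 4 with the smallest p, the most abundant, and 10 known regulators. Per list, the 2 with the smallest p are named, with values for every lamb, a range or the difference alone. EIF3G and others are named after their values were seen. The genes and lists were chosen with earlier results of these data known. Alternatives were pseudocounts of 0.1 and 5, no filter, a mean of 5 TPM, scaling, quantile normalization, voom on the recovered reads, array weights, robust eBayes, lamb number as a block, each lamb left out and an adjusted p under 0.1; adding copies was chosen after seeing the data.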

Additional observations from a re-analysis of the deposited data

Results flagged for a closer look

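In each group of 4 lambs, the highest or lowest lamb was called apart when its gap to the next was over Dixon's 95% critical share of the group's range; chance alone does this in about 1 group in 20, and 7 of the 88 groups checked met it. EIF4G1 in RES had lamb 4 at 99.9 TPM, above the other RES lambs. EEF2K in ADL had lamb 2 at 41.0 TPM, above the others. EEF1A1 in RES had lamb 1 at 552.7 TPM, above the others, and the summed eIF3 level in RES had the same lamb highest at 1119 TPM. YARS in ADL had lamb 1 at 3.95 TPM, below the others. RARS2 in RES had lamb 2 at 5.30 TPM, above the others. AIMP2 in RES had lamb 3 at 7.92 TPM, below the others.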

How the results depend on the processing

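No translation gene passed an adjusted p of 0.05 under any alternative run, the deposited DESeq2 test and an adjusted p under 0.1 included. Over all genes, 1 passed with no filter and 0 to 1 with 1 lamb left out (1 without ADL lamb 1). The count of genes higher at unadjusted p under 0.05, 10 as reported, was 4 with size-factor scaling, voom and the deposited DESeq2 test and 5 with quantile normalization. The count lower, 0 as reported, was 4, 4, 4 and 6 under those, and 1 with no filter. With 1 lamb left out the counts were 5 to 16 higher (16 without ADL lamb 2, 5 without ADL lamb 3) and 0 to 1 lower. Medians under scaling, quantile normalization and voom were -0.013, -0.0021 and -0.016 for initiation factors (0.0925 to 0.122 with 1 lamb left out) and -0.036, -0.053 and -0.046 for mitochondrial synthetases (-0.0021 to 0.083). They were -0.093 and -0.112 for elongation genes under scaling and voom (-0.056 to 0.030). For cytosolic synthetases they were 0.086, 0.078 and 0.086 under scaling, quantile normalization and voom, against 0.18 as reported. With 1 lamb left out the cytosolic median was 0.139 to 0.208.

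Signs turned for genes near 0. Under scaling and voom, EEF1A1 gave -0.065 and -0.069 (-0.040 with copies and scaling). Under quantile normalization, scaling and voom, IARS2 gave -0.063, -0.074 and -0.079, EIF2S1 -0.043, -0.015 and -0.019, and EIF2B5 -0.045, -0.030 and -0.034. AIMP2 gave -0.036 and -0.0064 under quantile normalization and voom; EEF2K gave -0.00066 and EIF4EBP1 -0.0021 under quantile normalization. With 1 lamb left out the ranges were -0.00080 to 0.096 for EEF1A1, -0.021 to 0.067 for IARS2, -0.024 to 0.334 for AIMP2, -0.082 to 0.065 for AIMP1, -0.0026 to 0.122 for EIF2S1, -0.035 to 0.303 for EIF4EBP1 and -0.116 to 0.042 for EEF2. The cause was not tested.

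With lamb number as a replicate block, 11 genes were higher and 0 lower at unadjusted p under 0.05. Same-numbered lambs correlated at 0.153, -0.120, 0.0545 and 0.0577, and lambs of different numbers at -0.142 to 0.0755. With so few lambs a group, these values cannot settle whether the numbers pair the lambs. Low genes limit the precision: EEF2KMT and EIF4EBP3 rested on as few as 12 and 17 reads in a lamb.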

Other observations

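An entry on chromosome 22 (10784565 to 10785803) described as eukaryotic translation initiation factor 4E-like, LOC105612361, is not one of the genes above but holds most of the variation of the EIF4E family between lambs. It stood at 53.5, 11.9, 148.6 and 10.8 TPM in RES lambs and 12.4, 49.5, 18.9 and 36.8 TPM in ADL lambs, from 88 to 1284 reads. High and low lambs were found in both groups, and its within-group SD of 1.39 on the log2 scale exceeded that of 99.6% of genes tested. EIF4E itself stood between 18.4 and 25.7 TPM in the same lambs.

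The separation of EIF2S2 with its copies came mainly from LOC101113650 on chromosome 25 (7396490 to 7398355), an entry with the same description as EIF2S2. It stood at 54.0, 43.2, 47.5 and 53.1 TPM in RES lambs and 40.3, 35.9, 38.7 and 38.7 TPM in ADL lambs, with no overlap (difference 0.35 ± 0.09, SE; limma unadjusted p = 0.0039, adjusted p = 0.395; after scaling unadjusted p = 0.0178). Both entries were picked out after their values were seen.

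RES lamb 1 had the highest level for 31.6% of the 95 translation genes and for 19.1% of all genes tested; RES lamb 4 had it for 30.5% and 28.2%. ADL lamb 1 had the lowest level for 30.5% and 20.9%. After scaling RES lamb 1 was highest for 18.9% and 13.6%.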
